A study of Danio rerio with 3 samples.

Results

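The cytosolic ribosomal protein genes were read in zebrafish cells sorted by a macrophage marker, over the pools of wells that the study's design allows. They were chosen by symbol: rpl, rps or rplp followed by a number, with paralogue letters and suffixes allowed, and without the S6 kinases (rps6k), a ribosomal protein binding protein and the mitochondrial ribosomal proteins (mrpl and mrps). This gave 73 of the 21915 gene IDs in the tables, under 70 distinct symbols, and the family held 14.7% of all gene UMIs (unique molecular identifiers, each counted as 1 captured mRNA molecule). A further 10 IDs that the symbol table lists for this family, among them those of rpl13, rpl24, rps3 and rps18, were not analysed here, and ribosomal proteins whose symbol has no number, such as rpsa2, fall outside the choice. IDs without a symbol could not be chosen, and those with one hold 75.9% of the UMIs, so the family's total may be incomplete.

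Cells sorted as mpeg-positive, mpeg being a macrophage marker, came from embryos at 5 days post fertilization that were ptpn6 mutants or their siblings; ptpn6 encodes the phosphatase Shp1, and the study asked what it does in early blood development. The allele, the strain, the number of embryos and the genotypes among the siblings are not stated in the labels, and no treatment is named. On sort day 1, mutants filled rows I to P and siblings rows A to H of 1 shared plate, and on sort day 2 mutants and siblings had a plate each, so that genotype and plate cannot be told apart on day 2. Each well was processed with CEL-Seq2, which tags the RNA of a well with a barcode and counts 3′ ends by UMI, so a transcript counts once whatever its length. Levels below are in CPM, the UMIs of a gene per 1000000 gene UMIs of the pool.

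Ribosomal proteins assemble with ribosomal RNA into a large and a small subunit, and the acidic stalk proteins of the large subunit recruit the elongation factors. Their mRNAs are among the most abundant of any growing cell and carry a 5′ terminal oligopyrimidine (TOP) tract, through which the mTOR pathway adjusts their translation together with that of elongation factors. Macrophages make new ribosomes when they grow or become activated.

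Wells with at least 1000 gene UMIs were kept, 593 in all. From day 1 these were 138 of the 192 wells with mutant cells and 131 of the 192 with sibling cells, and from day 2 they were 125 of 384 with mutant cells and 199 of 384 with sibling cells. Summed per genotype and day they gave 4 pools of 1121213 to 2185636 UMIs, with 2 pools per genotype, and the median well held 6890 to 9964 UMIs. Transcripts of ptpn6 were too rare to check the genotype labels, with 5 UMIs in mutants and 11 in siblings on day 1, and 0 in mutants and 3 in siblings on day 2. Of 26 matched macrophage marker IDs all had UMIs and 17 or 18 were found in at least 25% of the wells of each pool, and together they took 0.808% of the UMIs in mutants and 0.81% in siblings on day 1, and 0.991% in mutants and 0.872% in siblings on day 2. Muscle genes took 1.27% in mutants of day 1 and at most 0.16% in the other pools, and 1 mutant well held 15838 of those 17922 muscle UMIs. The neutrophil gene lyz had 799 UMIs in mutants and 9 in siblings of day 2, against 0 in both pools of day 1. The part of these differences in the ribosomal results was not tested, beyond the values without single wells or clusters given below.

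Ribosomal protein genes took a smaller part of the UMIs in mutants than in siblings on both sort days. On day 1 the family held 12.39% of the gene UMIs in mutants (95% exact binomial interval 12.33 to 12.44) and 15.49% in siblings (15.42 to 15.56), a difference of -3.1 percentage points. On day 2 it held 14.52% in mutants (14.46 to 14.58) and 15.86% in siblings (15.81 to 15.9), a difference of -1.34 points. These intervals cover counting error only. Both mutant pools lay below both sibling pools, with means of 13.46% ± 1.51 in mutants and 15.68% ± 0.262 in siblings (SD, n = 2 pools each). A two-sided exact permutation test gave p = 0.33, the smallest that 2 pools against 2 allow, so the difference could not pass a threshold of 0.05.

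Single wells spread far more widely than the pools. The share ran between 1.80% and 36.9% over all wells, and the middle 80% of wells of each pool lay between 6.15% and 20.6% in mutants and 8.30% and 24.4% in siblings on day 1, and between 9.63% and 20.4% in mutants and 10.2% and 21.2% in siblings on day 2. The median well held 11.87% in mutants and 15.77% in siblings on day 1, and 13.76% in mutants and 15.72% in siblings on day 2. Genotypes therefore overlapped well by well, while the median well of mutants lay below that of siblings on each day. Among the wells kept, the share was at most weakly related to depth, with Spearman coefficients between -0.119 and 0.25 within the 4 pools (131 to 199 wells each, given as a description). The highest coefficient was that of siblings of day 2. Wells left out for low depth held a smaller share in every pool, as given further below.

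**Figure D1:**
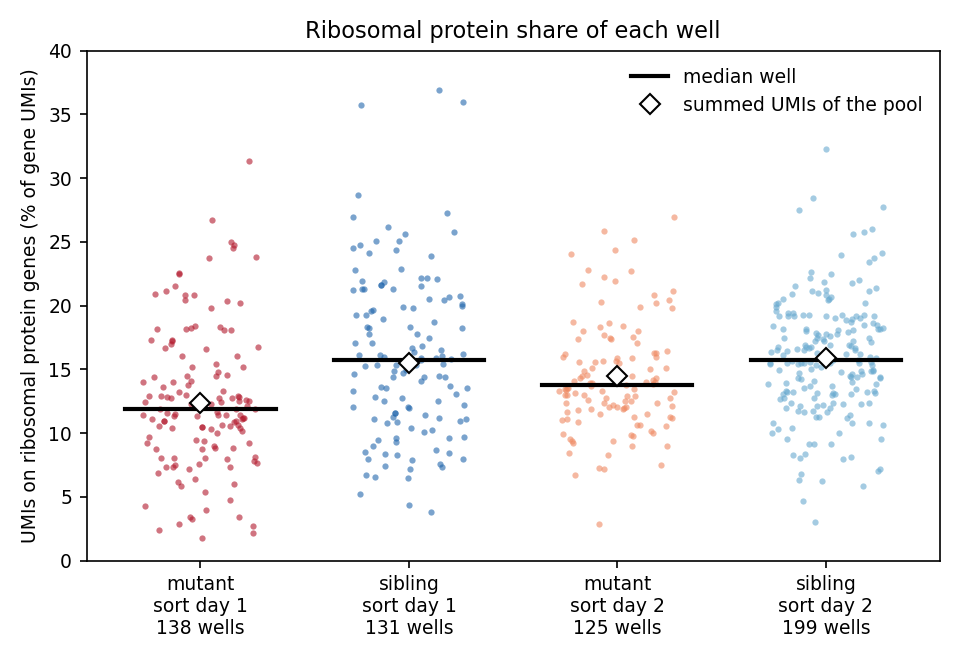
Share of gene UMIs on ribosomal protein genes (y axis, %) in each well kept, by genotype and sort day; points are wells, bars the median well and diamonds the share over the summed UMIs of the pool. Wells of the genotypes overlap, while the diamonds stand at 12.39% in mutants and 15.49% in siblings of day 1 and at 14.52% in mutants and 15.86% in siblings of day 2.

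The size of the day 1 difference rests on how the wells are assigned and on which wells are compared. The tables number the wells without naming rows, and the numbers were read row by row, because plates of this kind are usually sorted with 8 corner wells left without a cell, and on the shared plate the 8 wells so numbered held a median of 0.0591 of the plate's (0.0890 on the sibling and 0.799 on the sparse mutant plate of day 2). Read column by column, the 8 corner wells of the shared plate held a median of 1.66 of the plate's. On that plate 3 of them held under 500 UMIs, against 7 when read row by row. On day 2 it was 6 on the mutant and 5 on the sibling plate, against 8 on each row by row. Under the column reading, which these corner wells match less well, the day 1 shares became 13.69% in mutants and 13.85% in siblings, a difference of -0.162 points. In the wells of the macrophage-like clusters 1 and 5, whose naming is described below, the family held 11.87% in mutants and 13.65% in siblings of day 1, a difference of -1.785 points, and 14.61% in mutants and 16.48% in siblings of day 2, a difference of -1.869 points. Without the muscle-rich well, whose own share was 8.0%, the mutants of day 1 stood at 12.65%.

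A share depends on all other RNA too, so the UMIs were also set against the spike-in RNA of the wells; the labels do not say whether each well received the same amount. On day 1 there were 528.1 family UMIs per 1000 spike-in UMIs in mutants and 577.5 in siblings, a ratio of 0.914, while all other genes stood at 3735 in mutants and 3150 in siblings, a ratio of 1.19. On day 2 the family stood at 1665 in mutants and 1882 in siblings, a ratio of 0.885, and all other genes at 9806 in mutants and 9987 in siblings, a ratio of 0.982. Per spike-in, then, the summed family UMIs were lower in mutants on both days, and the rest of the RNA was higher on day 1 and close to the siblings on day 2. With 1 pool per genotype and day these ratios carry no test. The median well of day 1 was close to level, with 1009.8 family UMIs in mutants and 994.1 in siblings. It held 2430.5 spike-in UMIs in mutants and 2373.2 in siblings. On day 2 the median well held 1379 family and 894 spike-in UMIs in mutants, and 1578 and 938 in siblings.

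Nearly every member was lower in mutants, and none passed the test. Pool sums were compared with edgeR's quasi-likelihood test, adjusted over all 8177 genes tested by Benjamini-Hochberg, which took in 72 of the 73 members; the remaining one was too low. Of these 72, 0 were called at an adjusted p under 0.05, as were 0% of all genes. DESeq2 on the same pools called 0 members and 27 of all 8177 genes. An unadjusted p under 0.05 was found for 8 members, or 11.1%, against 3.31% of all genes: rpl5 (ENSDARG00000015862), rpl15, rps2, rps4y2, rps15a, rps20, rps21 and rplp2l. That count was 0 with DESeq2, against 2.49% of all genes, and 1 with DESeq2's size factors in edgeR, against 3.14%. With no scaling beyond the total it was 0, against 3.45%. With at least 500 UMIs per well it was 6, against 3.22%, and with at least 2000 it was 6, against 3.36%. Before the UMI correction described below it was 10, against 3.35%.

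The members shared a direction. Of 72 members 71 had a fitted log2 fold (mutant over sibling) below 0, where 51% of all genes did, and the median was -0.38 against -0.01 over all genes. Within both days 68 members were lower in mutants, or 94.4%, against 15.9% of all genes. For 49 members, or 68.1%, both mutant pools lay below both sibling pools, against 8.14% of all genes. The mutants of day 1 were the lowest of the 4 pools for 67 members, and the siblings of day 2 were the highest for 43 and those of day 1 for 26. How often each pool was the extreme over all genes was not counted. Fitted folds and CPM are on different scales. The fit scales the pools further by edgeR's TMM factors, 1.018 in mutants and 0.961 in siblings of day 1, and 1.097 in mutants and 0.932 in siblings of day 2. CPM and its ratios use the total alone, so a fitted fold lies lower than the printed levels alone would give. With no scaling beyond the total, the median over all genes moved to 0.15 and that of the members to -0.21, with 69 of 72 still below 0. With sort day as a block in the fit, 58 members, or 80.6%, had an unadjusted p under 0.05 where 5.08% of all genes did, yet 0 members passed the adjusted threshold (0.0245% of all genes did). That fit left 1 residual degree of freedom. The shares of all genes are not matched for depth: 64 members held at least 4000 UMIs, as did only 135 other genes. Members also rose and fell together over wells, as given below. The counts of members here and above are therefore not independent results.

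**Figure D2:**
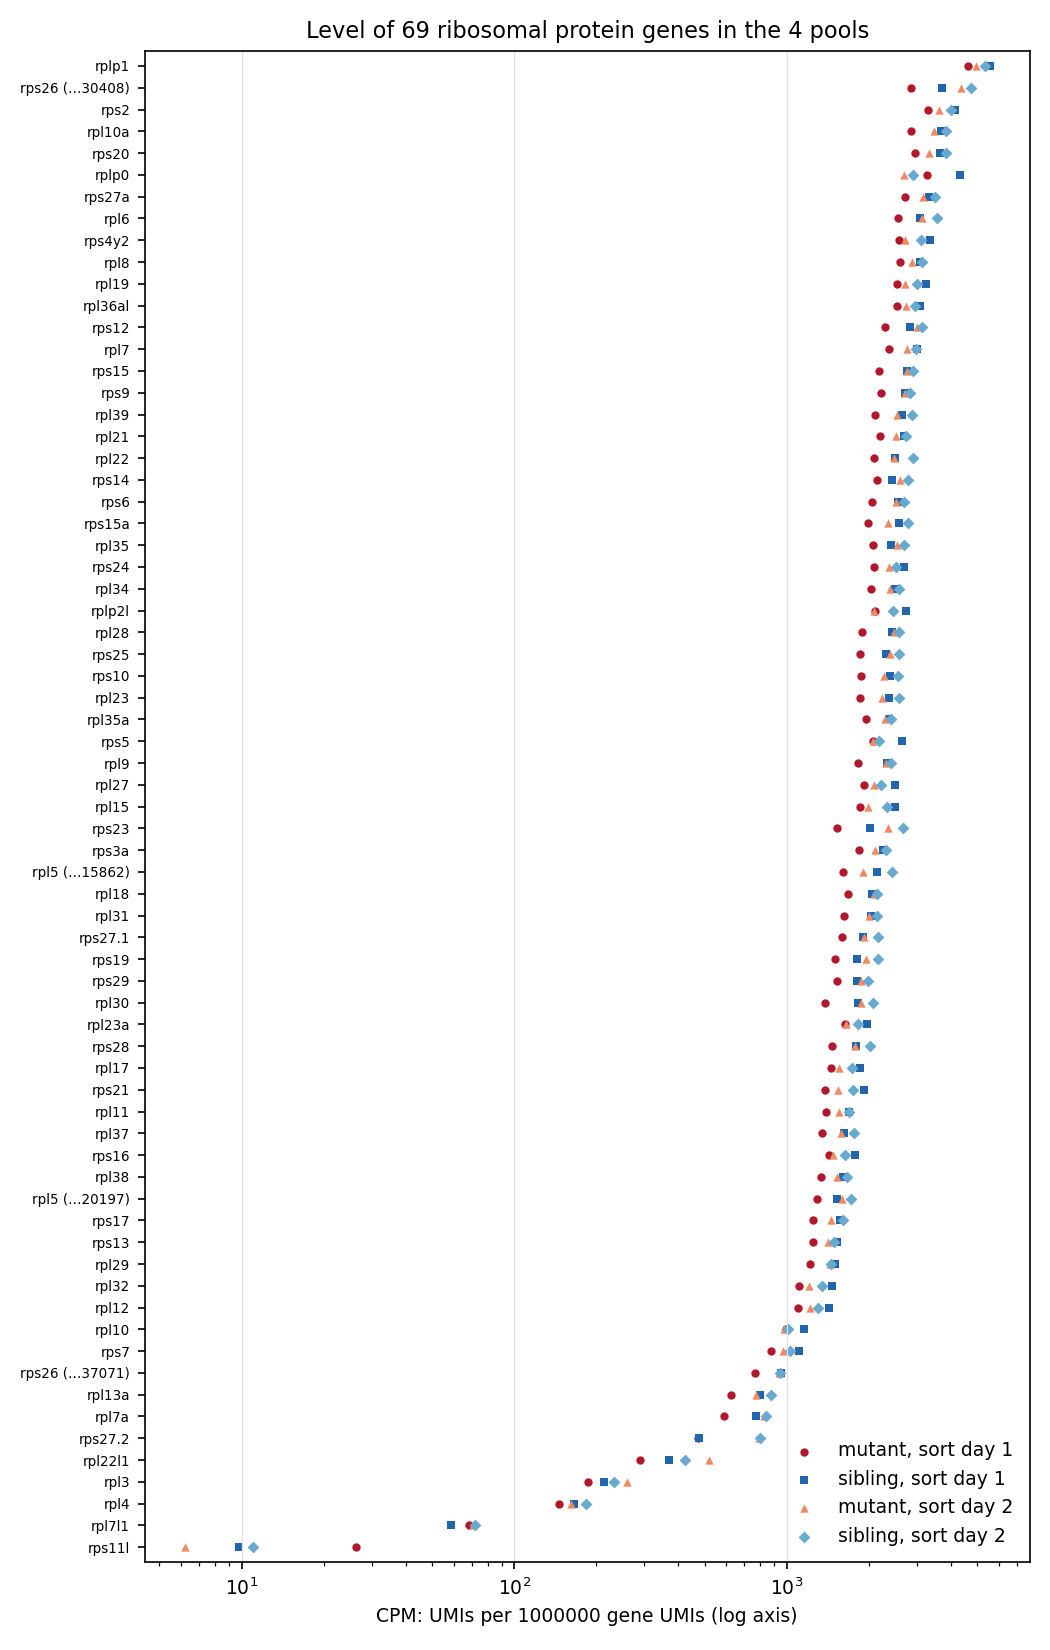
Level of each of 69 ribosomal protein genes (CPM, log axis) in the 4 pools, ordered by mean level; circles and triangles are mutants, squares and diamonds siblings, and the dots before 5 digits stand for the start of an ID. The circles of the mutants of day 1 form the left edge for 64 of these 69 genes, and the 5 others are rplp0, rplp2l, rpl10, rpl7l1 and rps11l. The same count over all genes was not made.

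The large subunit, without its stalk, took 6.1% of the UMIs in mutants and 7.6% in siblings on day 1, and 7.16% in mutants and 7.81% in siblings on day 2, over 38 members. Its 34 members with at least 4000 UMIs had fitted log2 folds between -0.55 and -0.29, a narrow band. The lowest was rpl5 (ENSDARG00000015862), which carries 5S ribosomal RNA into the subunit together with rpl11. It stood at 1610 CPM in mutants and 2148 in siblings on day 1, and at 1911 in mutants and 2429 in siblings on day 2. Both mutant pools lay below both sibling pools, and the log2 fold was -0.55 (SE 0.21, edgeR adjusted p = 1.0, block adjusted p = 0.362). Its second copy, rpl5 (ENSDARG00000020197), stood at 1292 in mutants and 1536 in siblings on day 1 and at 1590 in mutants and 1720 in siblings on day 2, where the mutants of day 2 overlapped the siblings of day 1 (log2 fold -0.34, SE 0.23). The second copy accordingly made up 44.5% of the pair's UMIs in mutants and 41.7% in siblings on day 1, and 45.4% in mutants and 41.5% in siblings on day 2. The counting intervals ran between 43.9 and 46.9% in mutants and 40.4 and 42.5% in siblings on day 2, apart from each other, while those of day 1 shared a narrow stretch.

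The partner rpl11, which binds Mdm2 when ribosome assembly is disturbed, as rpl5 does, had 1392 CPM in mutants and 1693 in siblings on day 1, and 1550 in mutants and 1688 in siblings on day 2. Both mutant pools were again the lower ones, with a log2 fold of -0.36 (SE 0.21, edgeR adjusted p = 1.0). The member rpl15, an early component of the large subunit, had 1854 CPM in mutants and 2493 in siblings on day 1, and 1984 in mutants and 2342 in siblings on day 2, without overlap (log2 fold -0.50, SE 0.20). At the other end of the band was rpl10, which joins the subunit last in the cytoplasm. It had 997 CPM in mutants and 1161 in siblings on day 1, but 980 in mutants and 1011 in siblings on day 2, where the log2 ratio of -0.05 had a counting interval of -0.15 to 0.06. The most abundant large subunit genes were rpl10a, with 2868 CPM in mutants and 3679 in siblings on day 1 and 3478 in mutants and 3845 in siblings on day 2, and rpl6, with 2559 in mutants and 3093 in siblings on day 1 and 3140 in mutants and 3573 in siblings on day 2. For rpl10a both mutant pools were below both sibling pools, and for rpl6 the mutants of day 2 lay just above the siblings of day 1.

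A letter in these symbols usually marks another protein and not a second copy: rpl7a, rpl10a, rpl23a and rpl35a are distinct large subunit proteins. They kept to the same band as their namesakes. The log2 folds were -0.38 for rpl7 and -0.36 for rpl7a, -0.44 for rpl23 and -0.37 for rpl23a, and -0.32 for rpl35 and -0.34 for rpl35a, with SEs of 0.19 to 0.27. The differences within these pairs are smaller than the SEs.

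The small subunit, with 32 members, took 5.29% of the UMIs in mutants and 6.63% in siblings on day 1, and 6.38% in mutants and 6.98% in siblings on day 2. Its 27 members with at least 4000 UMIs had log2 folds between -0.49 and -0.31, again a narrow band. The most abundant was rps26 (ENSDARG00000030408), which sits where mRNA leaves the ribosome and is mutated in some people with Diamond-Blackfan anaemia. It had 2856 CPM in mutants and 3707 in siblings on day 1, and 4346 in mutants and 4731 in siblings on day 2. The sort days were farther apart than the genotypes, and the log2 fold was -0.41 (SE 0.23, edgeR adjusted p = 1.0). The other rps26 ID, ENSDARG00000037071, had 762 in mutants and 952 in siblings on day 1 and 934 in mutants and 946 in siblings on day 2, with no day 2 difference beyond counting error (log2 ratio -0.02, interval -0.12 to 0.08).

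Lower in mutants without overlap were rps2, a component of the mRNA entry channel, rps20, rps15a and rps21. For rps2 there were 3290 CPM in mutants and 4129 in siblings on day 1, and 3631 in mutants and 4000 in siblings on day 2 (log2 fold -0.40, SE 0.17, edgeR adjusted p = 1.0). For rps20 the log2 fold was -0.41 (SE 0.18), for rps15a -0.48 (SE 0.20) and for rps21 -0.49 (SE 0.21). The gene rps6, whose protein is phosphorylated by the S6 kinases downstream of mTOR, had 2055 CPM in mutants and 2557 in siblings on day 1, and 2510 in mutants and 2688 in siblings on day 2, also without overlap (log2 fold -0.37, SE 0.20). The gene rps27a, which encodes ubiquitin fused to a small subunit protein, had 2708 in mutants and 3327 in siblings on day 1, and 3168 in mutants and 3498 in siblings on day 2 (log2 fold -0.38, SE 0.18), and its groups did not overlap either.

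The stalk took 1.0% of the UMIs in mutants and 1.26% in siblings on day 1, and 0.977% in mutants and 1.07% in siblings on day 2, in 3 genes. The acidic stalk protein rplp1 was the most abundant member of the family, with 4613 CPM in mutants and 5547 in siblings on day 1, and 4968 in mutants and 5321 in siblings on day 2; the genotypes did not overlap (log2 fold -0.34, SE 0.16, edgeR adjusted p = 1.0). The stalk base rplp0, which anchors the acidic pair, had 3284 in mutants and 4308 in siblings on day 1, but 2702 in mutants and 2902 in siblings on day 2, so that the mutants of day 1 lay above the siblings of day 2 (log2 fold -0.42, SE 0.24). The third stalk gene, rplp2l, had 2105 in mutants and 2734 in siblings on day 1, and 2097 in mutants and 2452 in siblings on day 2, without overlap (log2 fold -0.46, SE 0.20).

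**Figure D3:**
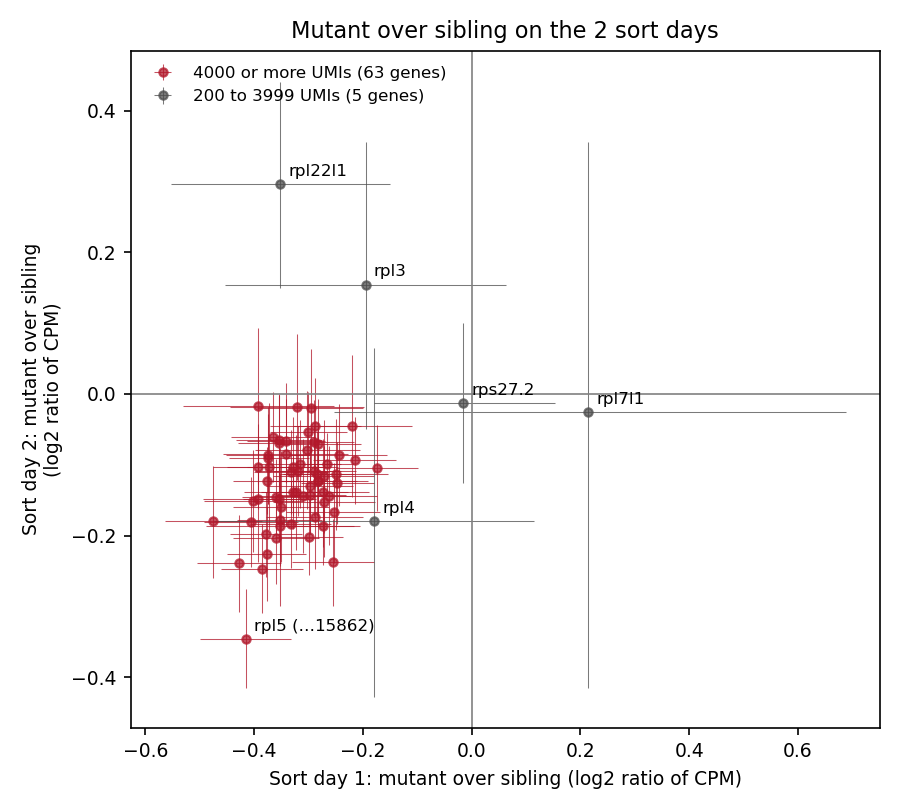
Log2 ratio of CPM, mutant over sibling, on sort day 1 (x axis) and sort day 2 (y axis) for 68 members with at least 200 UMIs; bars are 95% exact intervals that cover counting error only. The 63 of them with at least 4000 UMIs form 1 cloud between -0.48 and -0.17 on day 1 and between -0.35 and -0.02 on day 2, and rpl22l1, rpl3, rps27.2 and rpl7l1 lie outside it.

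Taken day by day, the 64 members with at least 4000 UMIs had log2 ratios of mutant over sibling between -0.48 and -0.17 on day 1, where all 64 counting intervals lay below 0, and between -0.35 and -0.01 on day 2, where 53 of the 64 did. The same count was not made for other genes of this depth, and these intervals cover counting error only. The median over all 72 members tested was -0.32 on day 1 and -0.12 on day 2, beside medians over all genes of 0.07 and 0.24. The difference between the days was not tested, since each day has 1 pool per genotype. The members that left the band were those with fewer UMIs, and each is a minor copy or a low gene.

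The paralogue rpl22l1 of the RNA-binding protein rpl22 was lower in mutants on day 1 and higher on day 2; in zebrafish the pair has been described as acting differently in blood development. It had 290 CPM in mutants and 370 in siblings on day 1, but 518 in mutants and 422 in siblings on day 2, with log2 ratios of -0.35 (counting interval -0.55 to -0.15) and 0.30 (0.15 to 0.44). The major copy rpl22 did not share this: it had 2096 in mutants and 2502 in siblings on day 1, and 2473 in mutants and 2917 in siblings on day 2. Of the pair's UMIs rpl22l1 held 12.2% in mutants and 12.9% in siblings on day 1, and 17.3% (interval 16.2 to 18.6) in mutants and 12.6% (11.9 to 13.4) in siblings on day 2. In this part the mutants of day 2 were thus the pool that stood apart. The CPM ratios above stand beside medians over all genes of 0.07 on day 1 and 0.24 on day 2. The day 2 rise of rpl22l1 in CPM was thus close to that of the median gene.

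The pair rps27.1 and rps27.2, 2 copies of a zinc finger protein of the small subunit, differed in another way. The major copy rps27.1 followed the family, with 1598 CPM in mutants and 1906 in siblings on day 1 and 1919 in mutants and 2155 in siblings on day 2. The minor copy rps27.2 was level between genotypes, with 473 in mutants and 478 in siblings on day 1, and 789 in mutants and 796 in siblings on day 2, and day 2 was the higher day in both genotypes. Its log2 ratios were -0.02 (interval -0.18 to 0.15) on day 1 and -0.01 (-0.13 to 0.10) on day 2. The fitted log2 fold was -0.20 (SE 0.36), below both ratios because the fit scales the pools beyond the total.

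A few low members remain. The gene rpl3, a core protein near the catalytic centre of the large subunit, had 187 CPM in mutants and 214 in siblings on day 1, and 260 in mutants and 233 in siblings on day 2, a ratio that crossed 0 between the days within counting error. The gene rpl7l1, a relative of rpl7, had 68.3 in mutants and 58.9 in siblings on day 1, and 70.6 in mutants and 71.8 in siblings on day 2, and its level was not detectably different on either day (log2 fold -0.08, SE 0.36). The low member rps11l had 37 UMIs in mutants and 11 in siblings on day 1, and 8 in mutants and 24 in siblings on day 2, so that its order of genotypes differed between the days. Reads of near-identical copies may be split between them.

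To see where in the sort the family was high or low, wells were clustered without the ribosomal protein genes, which gave 9 clusters. Clusters 2, 4 and 6 had the highest shares in each of the 4 pools. The family share was high in cluster 2, led by pdk2 and cnksr1 and left unnamed, at 18.12% ± 2.09, and in the lymphoid-like cluster 6, led by sftpba and holding eomes and ccr9 among its leading genes, at 18.05% ± 1.48 (mean ± SD over the 4 pools). It was low in the microglia-like cluster 3, led by apoeb and holding apoc1 and ccl34b.1, at 10.7% ± 1.35. It was also low in the metaphocyte-like cluster 9, led by grna.2 and icn, at 10.75% ± 1.17. The mesenchyme-like cluster 8, with col1a1a and col1a2, stood at 11.68% ± 2.79, where single deep wells weigh most, among them the muscle-rich well. Its median well held 11.4% in mutants and 10.5% in siblings on day 1, and 14.5% in mutants and 16.5% in siblings on day 2. In cluster 5 the median well held 12.2% in mutants and 12.6% in siblings on day 1, and 14.3% in mutants and 14.4% in siblings on day 2. By the median well cluster 8 was thus below cluster 5 on day 1 and above it on day 2, in both genotypes. The clusters called macrophage-like lay between, cluster 1 at 14.27% ± 2.0 and cluster 5 at 13.11% ± 1.44, and unnamed cluster 4, led by fthl28 and lacc1, was at 16.6% ± 1.95. The lowest was unnamed cluster 7, led by kank2 and ranbp10, at 9.01% ± 2.07, whose wells were shallow, with a median of 3485 UMIs. The name of cluster 1 rests on detected markers alone: 0 of its 10 leading genes is a macrophage marker, and the 17 of 26 markers found in at least 25% of its wells are as many as in clusters 2, 4, 5 and 8. That of cluster 6 rests on 2 leading genes. In at least 25% of its wells 3 of 11 lymphoid markers were found, beside 16 of 26 macrophage and 4 of 6 neutrophil markers. Neighbours in this order differ by less than the larger of their SDs, except cluster 4 against cluster 1.

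Within clusters the genotypes were compared without a test, since each value is 1 pool. In cluster 1 the family held 11.81% in mutants and 14.22% in siblings on day 1, and 14.33% in mutants and 16.70% in siblings on day 2. In cluster 2 it held 16.95% in mutants and 20.48% in siblings on day 1, and 15.87% in mutants and 19.18% in siblings on day 2. In cluster 4 it held 13.93% in mutants and 18.05% in siblings on day 1, and 16.36% in mutants and 18.06% in siblings on day 2. Mutants were lower on both days in these 3 clusters. In cluster 7 the family held 6.04% in mutants and 9.17% in siblings on day 1. On day 2 it held 10.37% (interval 10.06 to 10.68) in mutants and 10.48% (10.2 to 10.76) in siblings, level within counting error. The median well of cluster 7 on day 2 held 7.49% in mutants and 6.56% in siblings. In the summed UMIs of clusters 3, 5, 6, 8 and 9 the sign of the difference changed between the days. Several of these pools held fewer than 10 wells, and by the median well the signs differed in clusters 3, 5, 6 and 8, as given further below.

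The mix of clusters also differed between the pools. Cluster 7, the poorest in the family, held 18 of 138 wells in mutants and 6 of 131 in siblings on day 1, and 5 of 125 in mutants and 10 of 199 in siblings on day 2. Cluster 2, among the richest, held 22 wells in mutants and 34 in siblings on day 1, and 15 in mutants and 33 in siblings on day 2. On day 2 cluster 5 held 18.4% of the wells in mutants and 3.02% in siblings, and the mesenchyme-like cluster 8 held 12.8% in mutants and 3.52% in siblings. On day 1 microglia markers took 0.271% of the UMIs in mutants and 0.449% in siblings, and metaphocyte markers 0.199% in mutants and 0.107% in siblings. With every pool given the cluster mix of all wells kept, the share was 12.71% in mutants and 14.59% in siblings on day 1, a difference of -1.88 points, and 14.36% in mutants and 15.9% in siblings on day 2, a difference of -1.54 points. The difference remained below 0 on both days, and that of day 1 was smaller than over the pools as they stand.

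**Figure D4:**
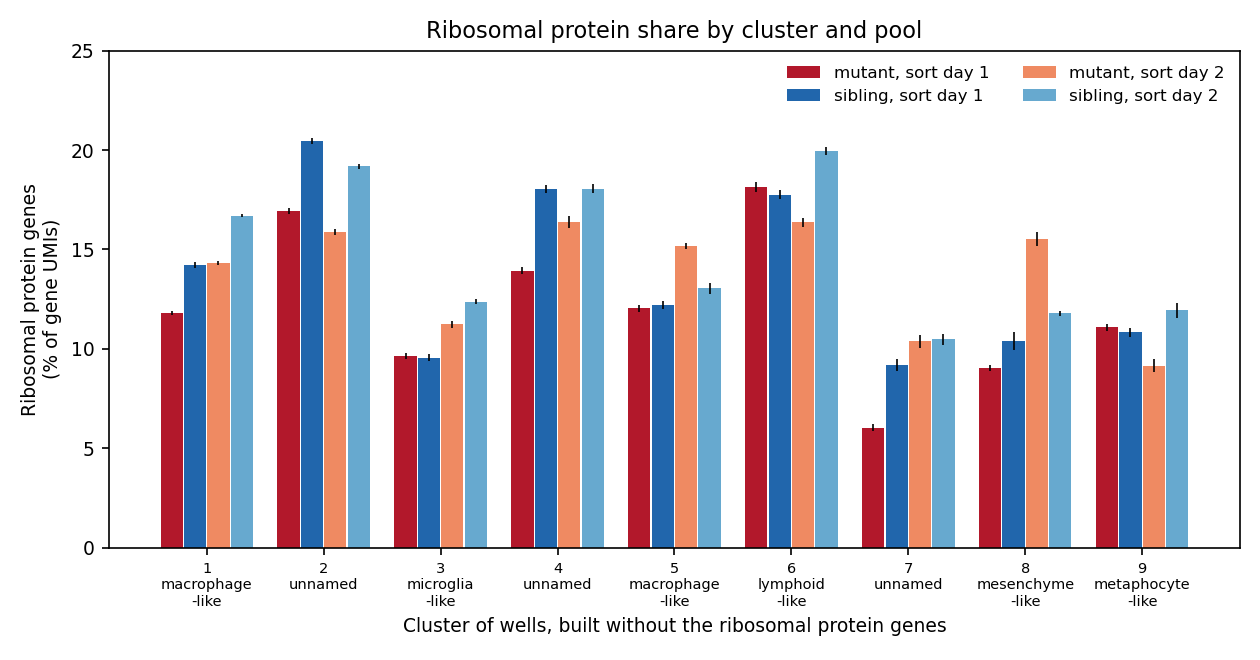
Share of gene UMIs on ribosomal protein genes (y axis, %) in each of the 9 clusters, with a bar for each pool; error bars are 95% exact binomial intervals that cover counting error only. Mutants stand below siblings on both days in clusters 1, 2 and 4, and in cluster 7 on day 1, with overlapping intervals on day 2. Cluster 7 and cluster 3 are low in most pools while clusters 2 and 6 are high.

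Shifts of a member's part of the family between clusters were mostly small, though some kept their sign in all 4 pools. For 610 pairs of a member and a cluster with at least 100 UMIs, the member's part of the family in the cluster was set against its part in the other wells of the same pool. Of these, 130 had the same sign in all 4 pools, and 3 were past 0.25 on the log2 scale in each. Some pairs would keep their sign in 4 pools without any shift, and that number was not worked out. The 130 are thus not read as an excess, and the 3 are the extremes of 610 comparisons, without a test. The first was rpl22l1 in cluster 2, with log2 ratios of 0.37 in mutants and 0.51 in siblings of day 1 and 0.46 in mutants and 0.66 in siblings of day 2. The second was rps27.2 in the microglia-like cluster 3, with 0.59 in mutants and 0.63 in siblings of day 1 and 0.45 in mutants and 0.35 in siblings of day 2. The last was the stalk gene rplp2l in the mesenchyme-like cluster 8, with -0.60 in mutants and -0.40 in siblings of day 1 and -0.27 in mutants and -0.33 in siblings of day 2. Cluster 8 held only 5 wells in mutants and 4 in siblings of day 1, and 16 in mutants and 7 in siblings of day 2. In mutants of day 1, 1 well held 78114 of its 136094 UMIs. In siblings of day 2, 1 well held 168454 of 284430.

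Seen against the major copy of each pair, rpl22l1 made up 17.8% (counting interval 16.6 to 19) of the rpl22 pair in cluster 2 and 16.8% (15 to 18.7) in the lymphoid-like cluster 6, and 10.1% (8.75 to 11.6) in the microglia-like cluster 3. For the rps27 pair the order differed: rps27.2 made up 29.5% (27 to 32) in cluster 3 and 25.2% (23.7 to 26.7) in cluster 2. In cluster 4 it made up 19.8% (17.6 to 22.1). These parts sum the pools, and clusters differ in their mix of days, which the counting intervals do not cover. Over all wells rps27.2 made up 22.8% in mutants and 20.1% in siblings on day 1. On day 2 it made up 29.1% in mutants and 27% in siblings. Cluster 3 stood above cluster 2 in each pool, with overlapping counting intervals. On day 2 the part was 32.3% in mutants and 29.1% in siblings of cluster 3. In cluster 2 it was 28.9% in mutants and 28.5% in siblings. Over the summed pools the pairs thus did not rank the clusters alike, and cluster 3 was the lowest for rpl22l1 and the highest for rps27.2. For the 2 rpl5 IDs the second copy stayed between 40.7% and 45.8% in all 9 clusters. These clusters were found on other genes, yet all counts come from the same wells, and no test was made.

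**Figure D5:**
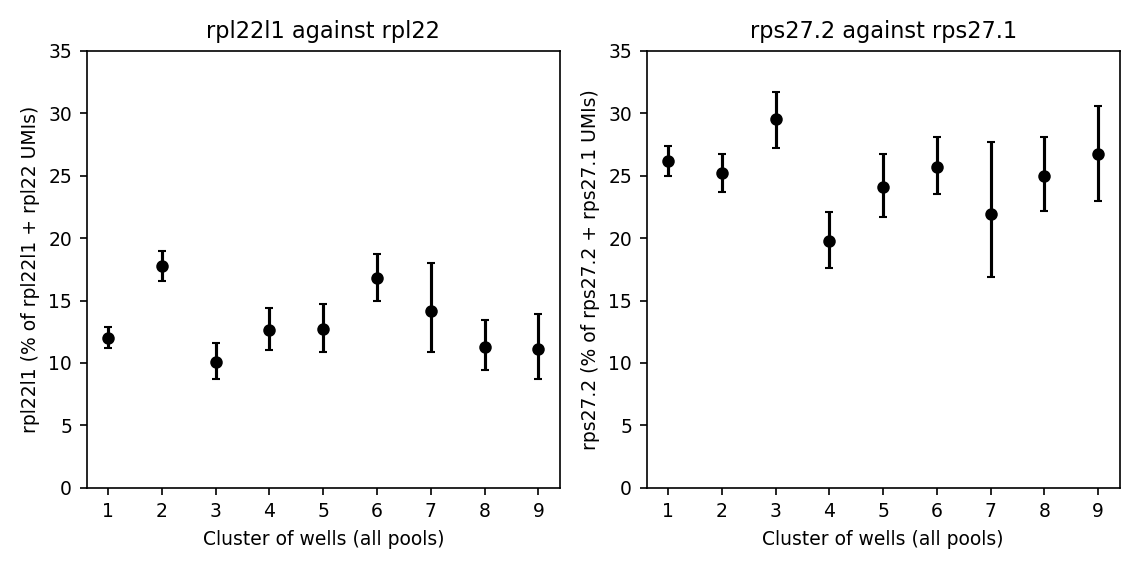
Part of the minor copy in the UMIs of a pair of paralogues (y axis, %) in each of the 9 clusters over all pools: left rpl22l1 against rpl22, right rps27.2 against rps27.1; bars are 95% exact binomial intervals that cover counting error only. On the left, cluster 2 stands at 17.8% and cluster 3 at 10.1%; on the right, cluster 3 stands at 29.5% and cluster 4 at 19.8%.

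Well by well, the members were high or low together. The mean Spearman coefficient of a member's share with that of the rest of the family, over the wells of each pool and averaged over the 4 pools, had a median of 0.726 for the 64 members with at least 4000 UMIs (range 0.51 to 0.841) and was highest for rplp1. The 135 other genes with at least 4000 UMIs had a median of 0.034, and the 1331 with at least 500 UMIs one of -0.009. The members below the common range were the low ones, which also carry most counting noise. They include rpl22l1 at 0.46, rpl3 at 0.321, rpl4 at 0.304, rps27.2 at 0.297, rps11l at 0.095 and rpl7l1 at -0.014, although rps27.2 had 3959 UMIs. Outside the family as chosen by symbol, the gene most like it was si:dkey-151g10.6 at 0.848, followed by eef1a1l1 at 0.748, the elongation factor that brings aminoacyl-tRNA to the ribosome, ENSDARG00000046119 at 0.741, ENSDARG00000020153 at 0.725 and rack1 at 0.717, a scaffold protein bound to the small subunit. What the IDs without a symbol encode was not looked up. All of these points share the wells' depth and total, and the coefficients are descriptions.

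Other genes of translation were read from lists, and 0 of their genes passed edgeR's test either, with an unadjusted p under 0.05 for 1 elongation factor and for 0 genes of the other lists. Of 8 elongation factors tested, 5 had a log2 fold below 0, the same number was lower in mutants on both days, and the median was -0.37. The most abundant, eef1a1l1, had 7387 CPM in mutants and 9106 in siblings on day 1, and 9497 in mutants and 10950 in siblings on day 2 (log2 fold -0.42, SE 0.17, edgeR adjusted p = 1.0), where the mutants of day 2 overlapped the siblings of day 1. Its exchange factor subunits eef1b2 and eef1g stood at -0.50 (SE 0.25) and -0.44 (SE 0.22). The translocation factor ID under the symbol eef2 lay on the other side of 0, at 1.65 (SE 0.86), on 96.8 UMIs in mutants and 6 in siblings of day 1 and 15 in mutants and 37 in siblings of day 2.

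Among 17 further genes with TOP mRNAs, 16 were below 0 and 7 were lower in mutants on both days, with a median of -0.32. They include the nascent chain factors btf3 at -0.50 (SE 0.25) and naca at -0.48 (SE 0.39), rack1 at -0.39 (SE 0.20), and the poly(A) binding protein pabpc1a at -0.18 (SE 0.19). Of 22 initiation factors 16 were below 0, at a median of -0.18, among them eif3b at -0.44 (SE 0.30). The lists that make or steer ribosomes did not follow: of 28 ribosome biogenesis genes 11 were below 0 and 3 were lower on both days, at a median of 0.21, with the nucleolar proteins ncl at -0.05 (SE 0.36) and nop56 at 0.02 (SE 0.36). Of 15 genes of the mTOR and S6 kinase path 7 were below 0, at a median of 0.20, with rps6kb1a at 0.70 (SE 0.41) and rps6kb1b at 0.57 (SE 0.39). Of 54 mitochondrial ribosomal protein genes 22 were below 0, at a median of 0.03. Each list stands beside 51% of all genes below 0 and 15.9% of all genes lower in mutants on both days, and the differences between lists were not tested.

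Sort day was a further difference between the pools, and it was tested with genotype in the model. Of the 72 members 0 were called for day 2 over day 1 at an adjusted p under 0.05 (0.183% of all genes were), and 4 had an unadjusted p under 0.05, or 5.56%, against 8.55% of all genes. Those 4 were rps27.2 at a log2 fold of 0.71 (edgeR adjusted p = 0.442), rps23, a protein of the decoding centre, at 0.49 (edgeR adjusted p = 0.355), rps26 (ENSDARG00000030408) at 0.45 (edgeR adjusted p = 0.209) and rplp0 at -0.46 (edgeR adjusted p = 0.264). For rps23 the levels were 1524 CPM in mutants and 2020 in siblings on day 1, and 2355 in mutants and 2670 in siblings on day 2, so that both pools of day 2 lay above both of day 1.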

How the data were processed

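Zebrafish cells from 3 plates of 384 wells were measured with CEL-Seq2. The deposited tables hold expected counts: UMIs per gene and well that had been corrected for molecules drawing the same UMI, as read from the values, since 100% of those above 0 became whole within 0.005 once that correction, for 4096 UMIs, was inverted. The submitters' processing notes name BWA and the build Zv9; their versions, the counting and the annotation are not given in these sources. Without the spike-in IDs, wells with at least 1000 UMIs were kept (median 6890 to 9964 UMIs by pool), no doublet caller was run, and wells were summed over genotype and sort day and rounded. The labels give no separate clutches for the pools, so p-values measure only the spread between pools, which may be technical.

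Symbols came from a table that matched 17027 of 21915 IDs, with 75.9% of the UMIs, and are printed in lower case; near-identical copies may have split reads. The family's members and all gene and marker lists were chosen with earlier results of these data known. Genes named are the 8 members with most UMIs, and the 5 lowest and 5 highest folds among members with at least 200 UMIs. Also named are copies of a symbol, a few fixed genes, and in each translation list those of largest fold or most UMIs. Others were picked after their values were seen, namely rplp2l, rpl4, rps4y2 and rps23.

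edgeR 4.0.16 (R 4.3.3) fitted genotype over 4 pools with TMM scaling and its default filter, and DESeq2 1.42.0 was an alternative. The edgeR fit was tested first on simulated data, with larger folds and less spread than in these pools. That test therefore does not show whether folds of the members' size could be called. Sort day, which the labels give to both genotypes, pairs the pools: deviations of pools of the same day had a correlation of 0.116, and fits with and without it as a block were run. Clusters came from scanpy 1.11.5 (2000 variable genes without the family, standardized within each plate, 20 components, 15 neighbours, Leiden resolution 1) and took the name of a class with at least 2 markers among their 10 leading genes and 3 detected; otherwise a cluster was called macrophage-like where at least 3 macrophage markers were detected and no class had more leading markers, unless it was shallow and none led. Intervals are exact, at 95%, and cover counting error only. Alternatives were other well minimums, scalings, filters, wells left out, the pools left out in turn and another reading of the well numbers. No genome or sequence table was used, so the planned promoter motifs were not searched. Single values of a few genes that the naming rule covers are not reported here and not drawn; they stay in the counts and medians.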

Additional observations from a re-analysis of the deposited data

Results flagged for a closer look

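For 4 genes the log2 ratios of mutant over sibling lay on opposite sides of 0 on the 2 sort days, a difference that was not tested because each day has 1 pool per genotype. The values were -0.352 on day 1 and 0.296 on day 2 for rpl22l1, where each counting interval lies on its own side of 0, and -0.195 and 0.154 for rpl3 and 0.214 and -0.026 for rpl7l1, where the intervals include 0. For rps11l they were 1.423 on day 1, with an interval above 0, and -0.824 on day 2, with an interval that includes 0, on 37 UMIs in mutants and 11 in siblings and on 8 in mutants and 24 in siblings. The medians over all genes were 0.068 on day 1 and 0.237 on day 2, so the day 2 ratio of rpl22l1 was close to that of the median gene.

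The family share, mutant minus sibling, also took opposite signs on the sort days in 5 clusters, again untested. It was 0.082 points on day 1 and -1.14 on day 2 in the microglia-like cluster 3, -0.15 and 2.12 in the macrophage-like cluster 5, 0.39 and -3.59 in the lymphoid-like cluster 6, -1.37 and 3.74 in the mesenchyme-like cluster 8, and 0.26 and -2.8 in the metaphocyte-like cluster 9. These are shares of summed UMIs, where deep wells weigh most. In siblings of day 2, 1 cluster 8 well held 168454 UMIs at a share of 8.1%. The median well of cluster 8 took the opposite signs, with 11.4% in mutants and 10.5% in siblings on day 1. On day 2 it held 14.5% in mutants and 16.5% in siblings. By the median well, mutants were lower on both days in clusters 3, 5 and 6 (in cluster 5 on day 2, 14.3% against 14.4%), and cluster 9 kept its signs. Wells below the minimum of 1000 UMIs, which entered no comparison, held the family too: 10.03% of their UMIs in mutants and 11.94% in siblings of day 1, and 12.6% in mutants and 13.25% in siblings of day 2, each below the share of the wells kept in the same pool.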

How the results depend on the processing

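Under every setting tried, 0 members were called, 68 to 72 were below 0, and the share stayed lower in mutants on both days; with the replicate block 71 were below 0, at a median of -0.374, and the pairing by sort day changed no call of a member. The median log2 fold of members moved from -0.375 to -0.212 with no scaling and -0.234 with wells numbered column by column, and lay between -0.439 and -0.313 with 1 pool left out. The share difference was -3.102 points on day 1 and -1.34 on day 2. For day 1 and day 2 it was -2.852 and -2.016 without the 2% of wells with most UMIs, -1.785 and -1.869 in macrophage-like wells, -3.429 and -1.546 without mitochondrial genes and the ID with most UMIs, -2.95 and -1.458 before the collision correction, -3.903 and -1.955 as the median over wells, -3.353 and -1.547 with wells thinned to 1000 UMIs, and, chosen after seeing the data, -3.533 and -1.494 with wells weighted equally and -1.88 and -1.54 at a fixed cluster mix. Day 1 alone gave -0.162 with wells numbered column by column and, chosen after seeing the data, -2.963 without cluster 7 and -2.844 without the muscle-rich well; the causes were not tested. Low members changed sign: in macrophage-like wells rpl3 (0.053), rpl22l1 (0.106) and rpl7l1 (0.318), with no scaling rpl22l1 (0.024) and rpl7l1 (0.079), and by column rpl22l1 (0.025) and rps11l (-0.444). With 1 pool left out, where the lone pool is assumed to vary like the others, log2 folds ran between -0.552 and 0.254 for rps27.2, -0.371 and 0.012 for rpl3, -0.564 and 0.184 for rpl22l1, -0.239 and 0.102 for rpl7l1, and -0.946 and 1.21 for rps11l. The other 616 values of single genes kept their direction and their side of the threshold. Of all genes tested 0 were called, against 27 with DESeq2, 226 with no filter, 2 with the replicate block, 5 in macrophage-like wells and 0 to 280 with 1 pool left out (280 without the siblings of day 1, 63 without those of day 2 and 7 without the mutants of day 1). Depth limits rpl7l1 and rps11l, at 410 and 80 UMIs.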
